A study of Mus musculus with 26 samples.

Results

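The 10 cardiomyocyte calcium handling genes examined here were Atp2a2, Pln, Sln, Ryr2, Casq2, Slc8a1, Cacna1c, Camk2d, Hrc and Trdn. They were taken by gene name from the 56941 genes listed in the count matrix, and each name matched 1 gene. RNA of the left ventricle had been sequenced in 26 mice, of which 6 males and 6 females were controls and 7 males and 7 females were knockouts. The knockout (cKO) mice had the genotype aMHC-CreTg/0-Ppp2r2aL/L and the floxed control (Ctrl) mice aMHC-Cre0/0-Ppp2r2aL/L. Ppp2r2a was thus floxed in every mouse, Ctrl included. It encodes B55α, which directs the phosphatase PP2A to its substrates. In cKO mice the Cre recombinase was driven by the aMHC promoter, which is active in heart muscle cells and not in the other cells of the ventricle. All were 12 to 16 weeks old and had received saline from an implanted minipump for 2 weeks. The strain was given as C57BL/6N on the samples, while the series text describes a mixed background, in which the aMHC-Cre mice came from FVB and the floxed mice from C57BL6/N. Cre-only mice were not analysed here. The series title names regulation of the cardiac transcriptome that differs between the sexes, and the design addresses it here by setting cKO against Ctrl separately in males and females and then testing whether the 2 effects differ.

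Calcium drives each heartbeat in these cells. Calcium enters through the L-type channel, whose pore is encoded by Cacna1c, and opens the ryanodine receptor (Ryr2) of the sarcoplasmic reticulum, which releases stored calcium held by calsequestrin (Casq2) next to triadin (Trdn). The pump SERCA2 (Atp2a2) returns calcium to the store under the brake of phospholamban (Pln) in the ventricle and sarcolipin (Sln) in the atrium, and the exchanger NCX1 (Slc8a1) extrudes the rest. Several of these proteins are regulated by phosphorylation, with the kinase CaMKII (Camk2d) and PP2A among the enzymes known to act on them. RNA levels do not show phosphorylation.

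Each library was taken as 1 mouse; the labels do not tie mice to litters, so p-values measure the spread between these samples. Library totals ranged from 14403102 to 30867399 counts, and 15357 genes had enough counts to be tested. Levels are given in CPM, the count scaled to a common library total with TMM factors, and p-values come from the edgeR quasi-likelihood test with Benjamini-Hochberg adjustment over all genes tested. Genes with an adjusted p under 0.05 are described as called. The targeted gene Ppp2r2a lay at 11.8 to 16.2 CPM in cKO males against 24.1 to 47.7 CPM in Ctrl males, and at 9.96 to 16.2 CPM in cKO females against 36.2 to 46.7 CPM in Ctrl females. The genotypes did not overlap in either sex, and the log2 fold change over both sexes was -1.49 (adjusted p = 2.36e-10 by edgeR, SE 0.10). Ctrl males 3 and 6 had the lowest Ppp2r2a of the controls, at 24.9 and 24.1 CPM. Of the markers of ventricular cardiomyocytes, Myl2, Myl3, Myh6, Tnni3 and Ttn were abundant in every group, with Myl2 at 6812 to 10871 CPM over all mice. Irx4 and Hey2 were lower, with group means of 33.3 to 38.5 CPM and 3.01 to 3.83 CPM. The atrial light chain Myl7 had at most 3 counts in any library. It was the lowest of the atrial markers examined, and its level does not stand for the others. The range of the atrial marker Kcnj3 overlapped that of Irx4 in every group. Group means of the atrial marker Nr2f2 were above those of Hey2, and those of Nppa above those of Irx4.

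No calcium handling gene differed between cKO and Ctrl ventricles at the threshold. With edgeR, 0 of the 9 genes that could be tested were called in males (all genes: 0.443%), 0 in females (all genes: 0.0326%) and 0 in the mean over both sexes (all genes: 1.33%). At an unadjusted p under 0.05, Hrc passed in males and in the mean over both sexes, and no gene of the 9 passed in females. The corresponding shares of all genes were 13.2% in males, 5.15% in females and 14.1% for the mean. DESeq2 and limma voom also called 0 of them in these 3 comparisons. Sln, the remaining gene, had too few counts for a test.

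The estimates were small and mostly below 0. Of the 9 genes, 7 had a lower mean in cKO males, 8 in cKO females and 8 over both sexes, where all genes tested gave 49.7%, 48.9% and 48.4%. The levels of these genes tended to vary together between mice (given below), so the 9 signs are not independent. The median log2 fold change of the 9 genes was -0.03 in males, -0.07 in females and -0.04 over both sexes, beside 0.00 for all genes tested in each. With the correction for length and GC content these medians were -0.07 in males, -0.09 in females and -0.09 over both sexes. With 1 mouse left out the male median ran from -0.0437 to -0.00465 and moved by over 1.5 times without Ctrl males 2 or 4 or cKO males 2, 6 or 7. The female median ran from -0.11 to -0.0278 and moved so without Ctrl females 3, 5 or 6 or cKO female 2. The 9 estimates over both sexes ran from -0.15 for Hrc to 0.03 for Camk2d. In no sex did the Ctrl and cKO ranges of any of the 9 genes separate, while they separated for 1.28% of all genes in males and 0.169% in females. The plot of levels in each mouse shows this overlap.

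**Figure D1:**
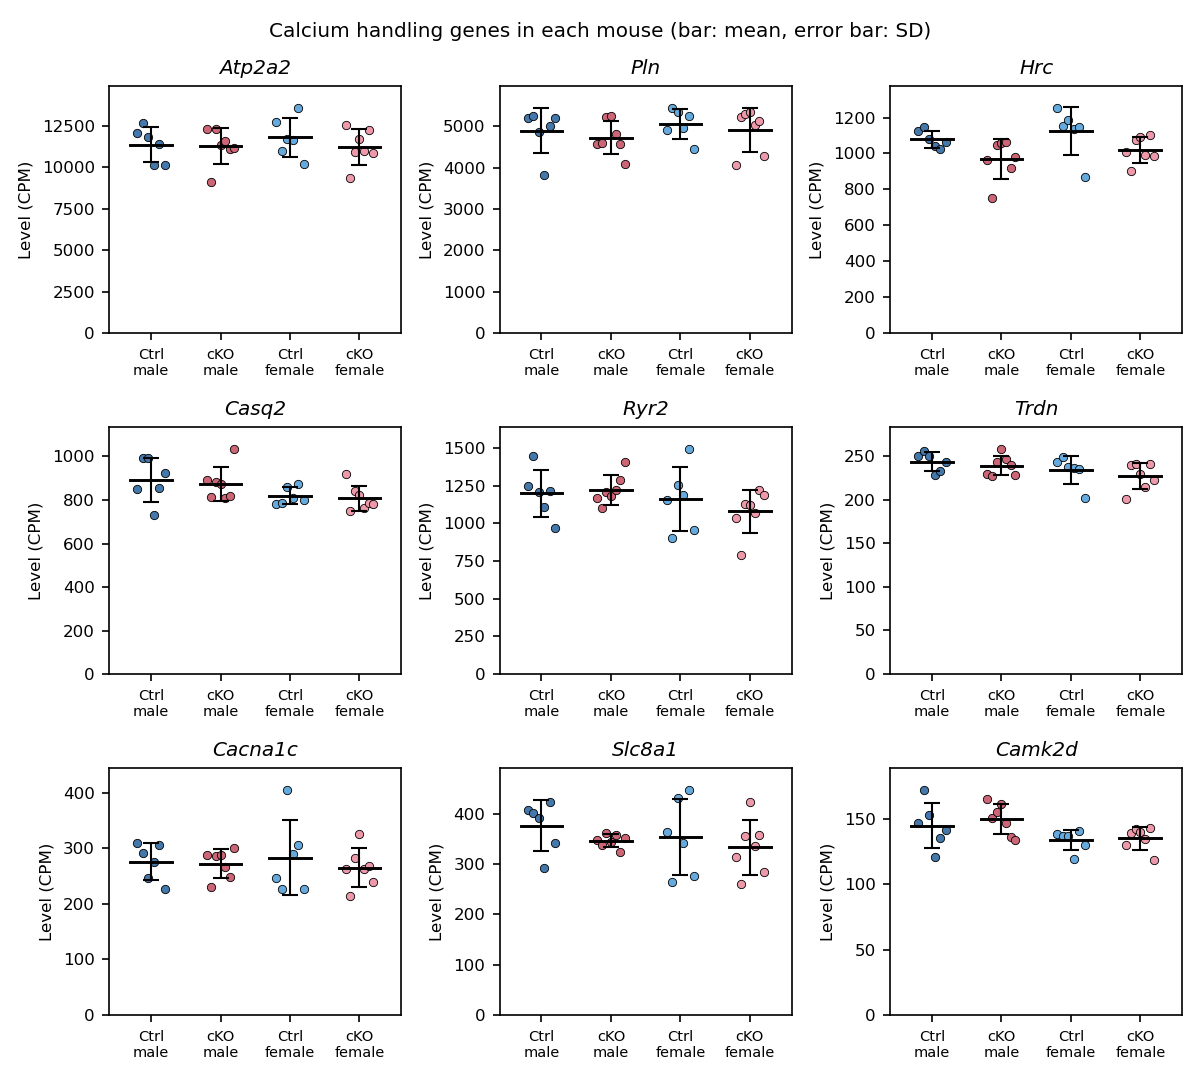
Level in CPM (vertical axis, from 0) of the 9 calcium handling genes tested, in each of the 26 mice by genotype and sex. Points are mice, the wide bar is the group mean and the error bar the SD; the Ctrl and cKO points overlap in both sexes for every gene shown.

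The pump gene Atp2a2 was the most counted of the 10, with 6364992 counts over all libraries and 1.14% of all counts. In males its lowest, median and highest values were 10138, 11623 and 12653 CPM in Ctrl mice and 9086, 11354 and 12300.1 CPM in cKO mice. In females they were 10210.3, 11671 and 13553 CPM in Ctrl mice and 9343, 10996 and 12556 CPM in cKO mice. The genotypes overlapped over most of their ranges in both sexes, and cKO male 2 was the lowest mouse of all. The log2 fold change was -0.01 (adjusted p = 0.964 by edgeR, SE 0.07) in males and -0.07 (adjusted p = 0.982 by edgeR, SE 0.07) in females. The 95% interval of the change ran from -10.9% to 10.1% in males, -14.3% to 5.8% in females and -9.89% to 4.63% over both sexes.

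Pln encodes the small membrane protein that slows the pump until it is phosphorylated. Its lowest, median and highest values were 3822, 5099 and 5258 CPM in Ctrl males and 4094, 4591 and 5236 CPM in cKO males. In Ctrl females they were 4456, 5107 and 5430.0 CPM and in cKO females 4058, 5121 and 5349 CPM. Ctrl male 4 had the lowest value of all mice, and the ranges of the genotypes overlapped in both sexes. The log2 fold change was -0.05 (adjusted p = 0.839 by edgeR, SE 0.08) in males and -0.04 (adjusted p = 0.987 by edgeR, SE 0.08) in females, with a 95% interval of -10.2% to 4.39% over both sexes.

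The ratio of Pln to Atp2a2 CPM is given as a description of brake to pump transcripts, without a test. It was 0.431 ± 0.0447 (n = 6, SD) in Ctrl males and 0.422 ± 0.0487 (n = 7, SD) in cKO males. In Ctrl females it was 0.431 ± 0.0413 (n = 6, SD) and in cKO females 0.442 ± 0.0743 (n = 7, SD). The 4 means lay within 1 SD of each other, and cKO females had the widest spread, from 0.323 to 0.559.

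Sln, the atrial brake on the pump, was near absent in these ventricles. It had 14 counts over all 26 libraries, against 2708593 counts of Pln. Counts were found in 9 mice and reached 3 in cKO males 1 and 4, while all 6 Ctrl females had 0. A value of 3 counts, taken as the least that can be told from 0, corresponded to 0.0928 to 0.21 CPM in these libraries, so every mouse was at or under this floor and no fold change is given. By group there were 3 counts in Ctrl males, 8 in cKO males, 0 in Ctrl females and 3 in cKO females. Of the 7 atrial markers, Myl7 and Bmp10 had too few counts for a test, with Bmp10 at 0 to 0.186 CPM in Ctrl males, 0.118 to 0.465 in cKO males, 0 to 0.149 in Ctrl females and 0 to 0.222 in cKO females. Of the 5 tested, 4 had higher means and 1, Kcnj3, a lower mean over both sexes, at -0.11 (SE 0.10) for Kcnj3, 0.09 (SE 0.11) for Myl4 and 0.10 (SE 0.07) for Nr2f2. Dkk3 was called, at 0.57 (adjusted p = 0.0417 by edgeR, SE 0.14), and Nppa, also a stress gene of the ventricle, was at 0.95 (adjusted p = 0.0812 by edgeR, SE 0.27). Nppa alone made up most of the summed level, with group means of 220.1 to 510.1 CPM. The 7 markers summed to 136 to 468 CPM in Ctrl males, 172 to 788 in cKO males, 224 to 547 in Ctrl females and 369.9 to 904 in cKO females. Their part in the Sln counts was not tested.

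Of the genes of the store and its release channel, Hrc had the lowest fold change of the 9. Hrc encodes the histidine-rich calcium binding protein of the sarcoplasmic reticulum, which binds calcium and is known to contact both the pump and triadin. In males the lowest, median and highest values were 1023, 1071 and 1145 CPM in Ctrl mice and 754, 981 and 1064 CPM in cKO mice. In females they were 869.8, 1151 and 1251 CPM in Ctrl mice and 900.3, 1007 and 1103 CPM in cKO mice. All 7 cKO males and all 7 cKO females lay below the Ctrl mean of their sex. The ranges nevertheless overlapped: in males the highest cKO mice reached into the lower Ctrl mice, and in females Ctrl mouse 6 lay below every cKO mouse. The log2 fold change was -0.16 (adjusted p = 0.355 by edgeR, SE 0.07) in males, -0.14 (adjusted p = 0.948 by edgeR, SE 0.07) in females and -0.15 (adjusted p = 0.155 by edgeR, SE 0.05) over both sexes. Over both sexes this was a difference of -9.68%, with a 95% interval of -16.1% to -2.79% that is not adjusted for the number of genes and an unadjusted p of 0.00839. Two-sided, an exact permutation test (1716 splits) gave p = 0.0297 in males (adjusted 0.535 over the 18 tests of this kind) and p = 0.135 in females (adjusted 0.857).

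Hrc was not called with all mice and passed only with 1 of them left out. Without Ctrl female 6, Hrc was -0.18 over both sexes and passed (edgeR adjusted p = 0.0326). Calls over all genes also rose in that fit, to 349 from 205 with all mice. With each of the other mice left out in turn Hrc did not pass, and its edgeR adjusted p reached 0.253. Markers of ventricular cardiomyocytes moved the same way as Hrc. All 7 markers had lower means in cKO over both sexes, with a median of -0.15, and 2 were called, Myl3 at -0.17 (adjusted p = 0.00965 by edgeR, SE 0.03) and Tnni3 at -0.17 (adjusted p = 0.0168 by edgeR, SE 0.04). Their summed level was 46926 to 52868 CPM in Ctrl males, 41128 to 49643 in cKO males, 49943 to 57196 in Ctrl females and 45972 to 55105 in cKO females. All 5 fibroblast markers had higher means in cKO over both sexes and none was called. Their summed level was 696 to 1008 CPM in Ctrl males, 814 to 1085 in cKO males, 654 to 873 in Ctrl females and 709.5 to 932 in cKO females. The part of these markers in the Hrc values was not tested, and in tissue RNA fewer cells of a type and less RNA per cell cannot be told apart.

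Ryr2, the release channel, was the gene of the 9 whose estimates in the sexes lay farthest apart. It ranged over 973 to 1446 CPM in Ctrl males and 1099 to 1406 CPM in cKO males, with means of 1200.0 ± 157 (n = 6, SD) and 1224 ± 98.7 CPM (n = 7, SD). In females it ranged over 906 to 1491 CPM in Ctrl mice and 793 to 1223 CPM in cKO mice, with means of 1159.5 ± 213 (n = 6, SD) and 1080.2 ± 142 CPM (n = 7, SD). The cKO ranges overlapped most of the Ctrl ranges. The log2 fold change was 0.03 (adjusted p = 0.941 by edgeR, SE 0.10) in males and -0.10 (adjusted p = 0.982 by edgeR, SE 0.10) in females. The male value changed sign, to -0.07, when transcript length and GC content were corrected for.

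Casq2, the calcium-binding protein of the store, and Trdn, which anchors it to the release channel, had nearly equal means in the genotypes. Casq2 was at 892 ± 100.3 CPM in Ctrl males (n = 6, SD) and 875 ± 77.4 CPM in cKO males (n = 7, SD). In females it was at 819 ± 39.3 CPM in Ctrl (n = 6, SD) and 809 ± 57.5 CPM in cKO mice (n = 7, SD). The differences were smaller than 1 SD in both sexes, and the log2 fold change over both sexes was -0.02 (adjusted p = 0.892 by edgeR, SE 0.05), with a 95% interval of -7.78% to 5.09%. Trdn was at 244 ± 10.9 CPM in Ctrl males (n = 6, SD) and 239 ± 11.2 CPM in cKO males (n = 7, SD). In females it was at 234 ± 16.3 CPM in Ctrl (n = 6, SD) and 227 ± 15.4 CPM in cKO mice (n = 7, SD). Its interval was the narrowest of the 9, -7.26% to 2.63% around a log2 fold change of -0.04 (adjusted p = 0.734 by edgeR, SE 0.04).

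At the cell surface, the channel gene Cacna1c and the exchanger gene Slc8a1 had the widest intervals over both sexes. Cacna1c was at 276 ± 33.4 CPM in Ctrl males (n = 6, SD) and 272 ± 25.4 CPM in cKO males (n = 7, SD). In females it was at 283 ± 67.7 CPM in Ctrl (n = 6, SD) and 265 ± 34.8 CPM in cKO mice (n = 7, SD). Its log2 fold change over both sexes was -0.06 (adjusted p = 0.825 by edgeR, SE 0.08), with a 95% interval of -14.2% to 7.7%. Slc8a1 was at 377 ± 50 CPM in Ctrl males (n = 6, SD) and 346 ± 12.9 CPM in cKO males (n = 7, SD), where all 7 cKO mice lay below the Ctrl mean and within the Ctrl range of 292 to 424 CPM. In females it was at 354 ± 75.9 CPM in Ctrl (n = 6, SD) and 333 ± 54.1 CPM in cKO mice (n = 7, SD). Its log2 fold change of -0.10 (adjusted p = 0.627 by edgeR, SE 0.08) over both sexes was the lowest after Hrc, with a 95% interval of -17% to 4.27%.

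Camk2d, the main cardiac isoform of CaMKII, was the only gene of the 9 with a higher mean in cKO mice of both sexes. It was at 145 ± 17.2 CPM in Ctrl males (n = 6, SD) and 149.6 ± 11.7 CPM in cKO males (n = 7, SD). In females it was at 133 ± 7.76 CPM in Ctrl (n = 6, SD) and 135 ± 8.71 CPM in cKO mice (n = 7, SD). The log2 fold change was 0.05 (adjusted p = 0.809 by edgeR, SE 0.07) in males and 0.02 (adjusted p = 0.997 by edgeR, SE 0.07) in females, differences within 1 SD of either group. The 95% interval over both sexes was -4.16% to 9.25%.

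The 95% intervals of the effect over both sexes give the precision of the edgeR fit for each of the 9 genes. They are not adjusted for the number of genes and do not cover the differences between processing settings. Their lower bounds reached -17%, for Slc8a1, and their upper bounds 9.25%, for Camk2d. Within a sex the bounds were wider, from -21.7% for Slc8a1 to 18% for Ryr2, both in males. The plot of fold changes gives all of these intervals.

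**Figure D2:**
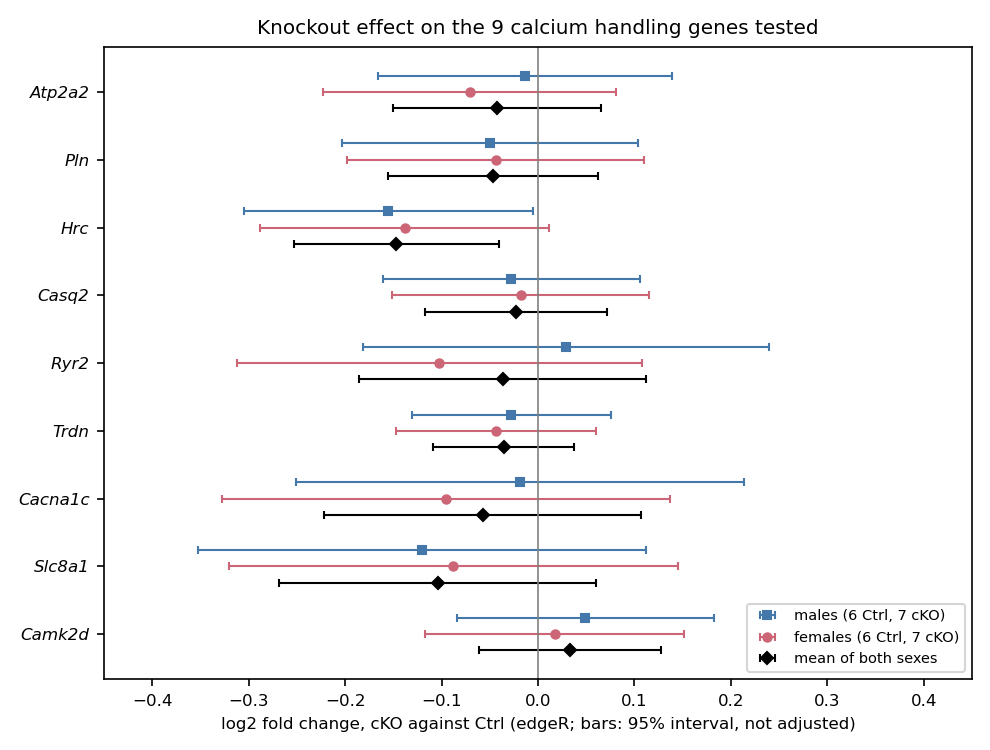
Log2 fold change of cKO against Ctrl (horizontal axis, edgeR) for the 9 genes in males, in females and as the mean of both sexes, with unadjusted 95% intervals as bars. The intervals of Hrc in males and over both sexes lie below 0; all others include 0.

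The knockout effect was next compared between the sexes. With edgeR, 0 of the 9 genes differed in their knockout effect between females and males at the adjusted threshold (all genes: 0.0%), and 0 did so at an unadjusted p under 0.05 (all genes: 3.96%). DESeq2 and limma voom called 0 of the 9 and 0 of all genes. The difference lay farthest from 0 for Ryr2, at -0.13 (adjusted p = 0.999 by edgeR, SE 0.14), and was 0.02 (SE 0.10) for Hrc. For Atp2a2 the ratio of the female to the male effect had a 95% interval of 0.828 to 1.12.

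Females were then compared with males within each genotype. With edgeR, 0 of the 9 genes were called in Ctrl mice (all genes: 0.638%) and 0 in cKO mice (all genes: 2.7%). At an unadjusted p under 0.05 there were 0 in Ctrl mice (all genes: 12.1%) and 1, Camk2d, in cKO mice (all genes: 17.3%). DESeq2 and limma voom called 0 of the 9 in either genotype. Camk2d had a lower mean in females than in males, with a log2 fold change of -0.12 (adjusted p = 0.515 by edgeR, SE 0.07) in Ctrl and -0.15 (adjusted p = 0.209 by edgeR, SE 0.06) in cKO mice. Casq2 had a lower mean in females in both genotypes too, at -0.12 (adjusted p = 0.483 by edgeR, SE 0.07) in Ctrl mice, where all 6 females lay below the male mean, and -0.11 (adjusted p = 0.361 by edgeR, SE 0.06) in cKO mice. For Ryr2 the difference was -0.05 (adjusted p = 0.907 by edgeR, SE 0.11) in Ctrl and -0.18 (adjusted p = 0.358 by edgeR, SE 0.10) in cKO mice. Pln, Hrc and Atp2a2 differed by at most 0.08 on the log2 scale in either genotype. These sex comparisons share their mice with the knockout comparisons above.

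Levels of different genes were compared per kb of their longest annotated transcript (GENCODE M21). On this scale Pln and Atp2a2 stood highest, with group means of 2025 to 2168 and 1980.3 to 2080.2 CPM per kb, and their ranges over mice overlapped in every group. Hrc followed at 402.1 to 466.4 and Casq2 at 316 to 349 CPM per kb, and these overlapped in cKO males and in no other group. Ryr2 followed at 64.2 to 72.8 and Trdn at 50.3 to 54 CPM per kb, which overlapped in both female groups. Camk2d (24.1 to 27.1), Cacna1c (20.1 to 21.5) and Slc8a1 (18.1 to 20.4) were lowest, and Cacna1c and Slc8a1 overlapped in every group. The order of the 9 genes was the same in all 4 groups. It depends on the transcript chosen: per kb of the principal transcript, Atp2a2 stood above Pln, and Slc8a1 moved from the ninth to the fifth place, its principal transcript having 3180 bases and its longest 18464. The plot of levels per length shows the order for the longest transcripts.

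**Figure D3:**
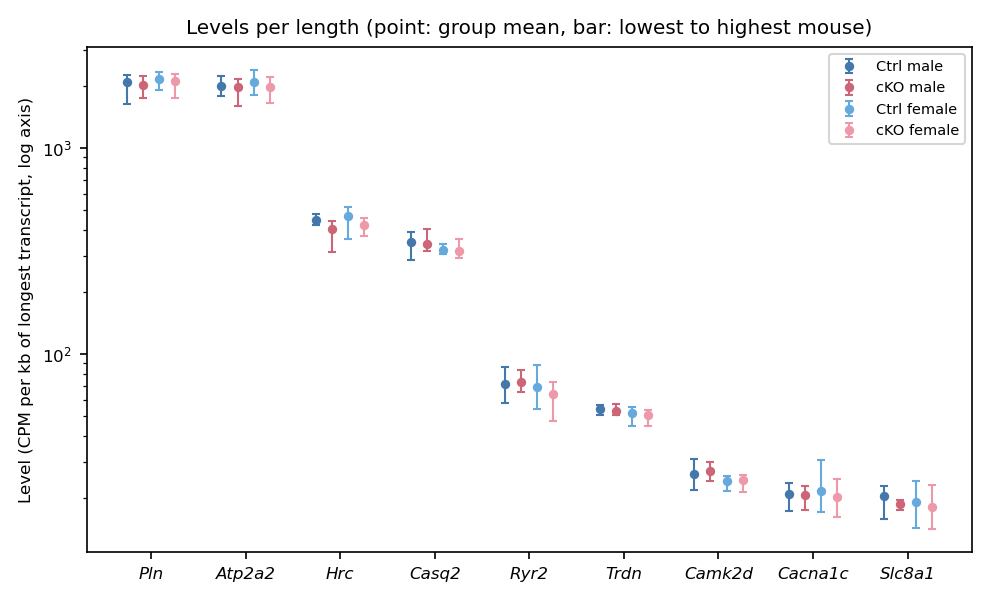
Level in CPM per kb of the longest annotated transcript (log axis) of the 9 genes, ordered from high to low, in the 4 groups. Points are group means and bars run from the lowest to the highest mouse; Pln and Atp2a2 lie together at the top and Cacna1c and Slc8a1 together at the bottom.

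Promoters are shown for the pairs Pln with Camk2d and Ryr2 with Slc8a1, whose levels varied together between mice (given next). The closest pair, Slc8a1 with Cacna1c, is not shown, and Cacna1c had several annotated starts. Each sequence is the 250 bases before the annotated start, 5′ to 3′ on the strand of the gene, from RefSeq on GRCm38.p6, a build other than the GRCm39 named for the counts. The table used held entries for 7 of the 10 genes, and none for Atp2a2, Sln and Trdn. The windows are chr10:53337436-53337685 (+) for Pln, chr3:126596701-126596950 (+) for Camk2d, chr13:12106946-12107195 (-) for Ryr2 and chr17:81738388-81738637 (-) for Slc8a1. Capitals mark matches to 4 motifs on either strand, the TATA box (TATAAA), the GATA site (AGATAA), the MCAT site (CATTCC) and the Sp1 site (GGGCGG).
Pln: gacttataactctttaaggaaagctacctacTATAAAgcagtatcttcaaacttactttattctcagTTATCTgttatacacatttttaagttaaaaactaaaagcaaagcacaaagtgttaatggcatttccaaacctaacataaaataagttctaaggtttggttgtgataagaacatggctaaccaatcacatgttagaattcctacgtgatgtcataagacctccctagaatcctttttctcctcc
Camk2d: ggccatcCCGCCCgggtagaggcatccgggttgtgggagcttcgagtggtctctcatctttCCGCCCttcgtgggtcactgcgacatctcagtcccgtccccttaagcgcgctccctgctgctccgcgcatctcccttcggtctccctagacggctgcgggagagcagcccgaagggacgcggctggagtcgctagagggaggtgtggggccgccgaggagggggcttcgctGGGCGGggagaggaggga
Ryr2: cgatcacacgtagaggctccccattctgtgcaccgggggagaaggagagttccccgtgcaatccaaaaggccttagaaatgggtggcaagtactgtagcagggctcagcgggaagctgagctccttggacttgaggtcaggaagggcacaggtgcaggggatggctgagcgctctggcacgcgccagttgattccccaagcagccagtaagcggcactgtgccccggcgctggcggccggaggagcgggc
Slc8a1: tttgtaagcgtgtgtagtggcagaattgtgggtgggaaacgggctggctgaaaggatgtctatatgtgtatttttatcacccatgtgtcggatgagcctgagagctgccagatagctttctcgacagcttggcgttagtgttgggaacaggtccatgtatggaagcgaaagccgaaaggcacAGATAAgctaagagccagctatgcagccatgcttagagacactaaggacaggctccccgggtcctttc

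The Pln window held 1 TATAAA at -219 and 1 AGATAA, on the reverse strand, at -183, counted from the annotated start. The Camk2d window held 3 GGGCGG matches and the Slc8a1 window 1 AGATAA at -68. The Ryr2 window held none of the 4, which says only that these letters were not in this window. Of all 32851 RefSeq mouse promoter windows of the same length, 12.4% held TATAAA, 9.99% AGATAA, 12.6% CATTCC and 32.7% GGGCGG. The Pln and Camk2d windows shared no motif. The Ryr2 window, holding none, could share none with that of Slc8a1. The base composition of the first pair also differed, with 32.8% G and C in the Pln window and 68.4% in that of Camk2d. A match is a string of letters and not evidence of binding.

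Within groups, the calcium handling genes tended to vary together from mouse to mouse. Correlations were computed between log2 CPM of all 36 pairs of the 9 genes over 26 mice, after the mean of each group had been subtracted, with p from 100000 two-sided permutations within groups and adjustment over the 36 pairs. The smallest p that these permutations can give is 1e-05. Pearson's r was positive in 35 pairs, with a median of 0.40, and 16 pairs, all positive, had an adjusted p under 0.05. In 13 pairs Spearman's rho passed as well. All pairs share their libraries, depth and scaling factors, which can move genes together, and no test against other gene sets was made. Pairs with Sln could not be computed, because of its low counts.

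The surface genes Slc8a1 and Cacna1c were the closest pair, with r = 0.77 (permutation p = 0.00017, adjusted 0.0018; rho = 0.75, permutation p = 0.0002, adjusted 0.0036). Ryr2 varied with Slc8a1, with r = 0.73 (permutation p = 0.00076, adjusted 0.00391) and rho = 0.67 (permutation p = 0.00102, adjusted 0.00678). With Atp2a2, Ryr2 gave r = 0.70 (permutation p = 0.00017, adjusted 0.0018) and a lower rho of 0.48 (permutation p = 0.0218, adjusted 0.0461). Within single groups r of Ryr2 with Atp2a2 ran from 0.32 to 0.91. Atp2a2 varied with Hrc, with r = 0.73 (permutation p = 0.0002, adjusted 0.0018; rho = 0.60, permutation p = 0.00212, adjusted 0.00918). As scaled, Pln had its highest r with Trdn and Camk2d. It varied with Camk2d, with r = 0.69 (permutation p = 0.0004, adjusted 0.00246; rho = 0.63, permutation p = 0.00147, adjusted 0.00756), and with Trdn, with r = 0.74 (permutation p = 5e-05, adjusted 0.0018; rho = 0.72, permutation p = 9e-05, adjusted 0.00324). Pln and its target Atp2a2 gave r = 0.19 (permutation p = 0.388, adjusted 0.482), which did not pass.

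Without the 2 mice farthest from the median of the first gene named, r was 0.81 for Slc8a1 with Cacna1c, 0.63 for Ryr2 with Slc8a1, 0.58 for Atp2a2 with Hrc, 0.62 for Pln with Camk2d and 0.68 for Pln with Trdn. Within single groups r ran from 0.46 to 0.97 for Slc8a1 with Cacna1c and from 0.07 to 0.96 for Ryr2 with Slc8a1. For Pln with Camk2d it ran from 0.42 to 0.82. After each library was corrected for transcript length and GC content, r was 0.37 for Pln with Trdn, whose transcripts hold 38.6% and 36.8% G and C, and 0.45 for Pln with Atp2a2. The other 4 of these pairs moved little, to 0.81 for Slc8a1 with Cacna1c, 0.71 for Ryr2 with Slc8a1, 0.74 for Atp2a2 with Hrc and 0.72 for Pln with Camk2d. Pln with Hrc, not among these pairs, went from 0.40 as scaled to 0.71, close to Pln with Camk2d. The median over the 36 pairs was 0.39.

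**Figure D4:**
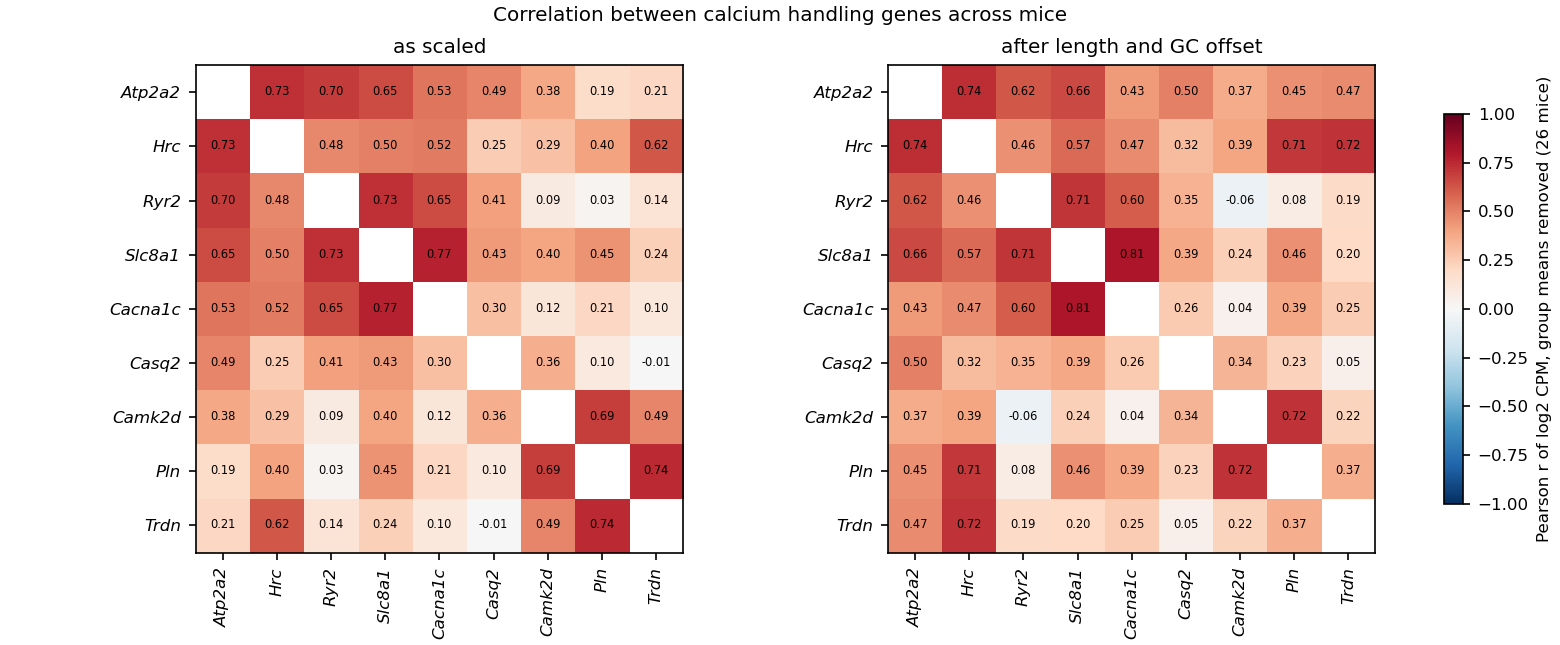
Pearson r between log2 CPM of the 9 genes over 26 mice with group means removed, as scaled (left) and after correction for transcript length and GC content (right). Darker red is a higher r; Slc8a1 with Cacna1c (0.77 and 0.81) stays high in both panels, and Pln with Trdn goes from 0.74 to 0.37.

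Among all genes tested, those with the highest r to Atp2a2 over the 26 mice were Kcnk3 (r = 0.90), Ppp1r12b (0.86), Huwe1 (0.86), Tmod1 (0.85) and Atg9a (0.85). They are given as a description, on log2 CPM with group means removed. No such list was made for Sln, whose counts were too low.

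The wider calcium handling pathway was described with 80 further genes in 7 lists, of which 75 could be tested. Over both sexes, 1 of the 75 was called with edgeR (all genes: 1.33%), a share like that of all genes. In males 0 were called (all genes: 0.443%) and in females 0 (all genes: 0.0326%). At an unadjusted p under 0.05 there were 3 higher and 9 lower over both sexes (all genes: 14.1%), 3 higher and 4 lower in males (all genes: 13.2%) and 2 higher and 6 lower in females (all genes: 5.15%). Their median log2 fold change over both sexes was -0.02, beside 0.00 for all genes tested. The plot of pathway genes shows the lists side by side.

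**Figure D5:**
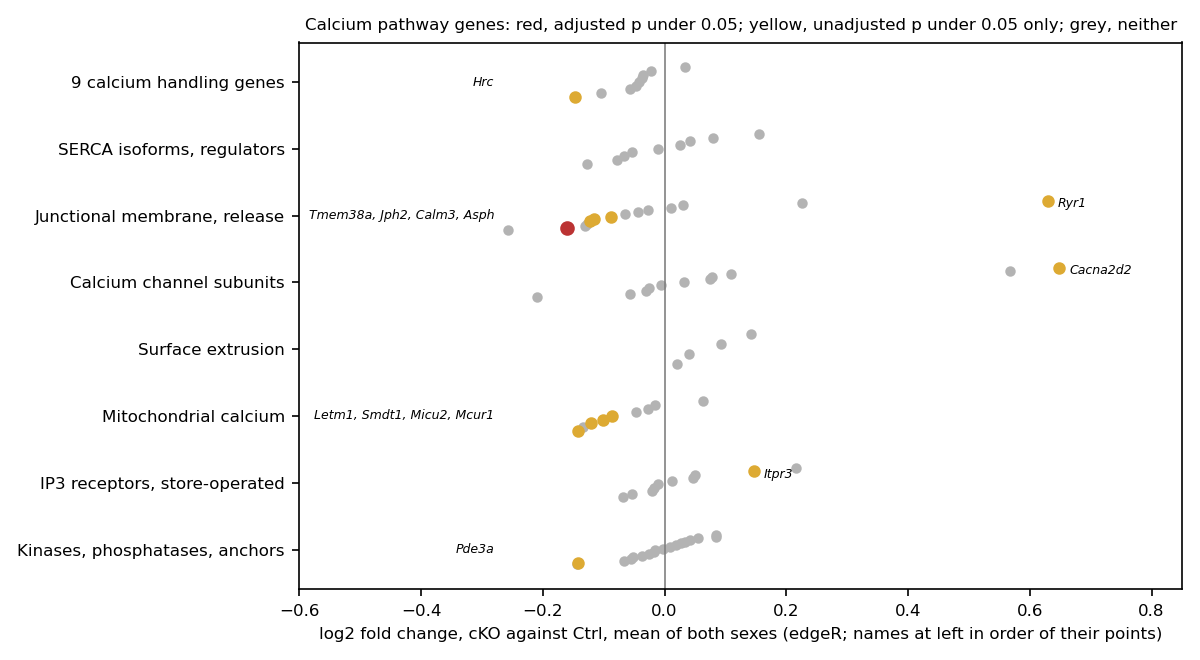
Log2 fold change of cKO against Ctrl over both sexes (horizontal axis, edgeR) for the 9 calcium handling genes and the 75 further pathway genes tested, by list. Red marks an adjusted p under 0.05 (Tmem38a), yellow an unadjusted p under 0.05 only and grey neither; vertical spread within a list only separates the points.

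The called gene was Tmem38a, which encodes TRIC-A, a cation channel of the sarcoplasmic reticulum membrane that supports calcium release. Its lowest, median and highest values were 497, 532 and 562 CPM in Ctrl males and 394, 472 and 505 CPM in cKO males. In Ctrl females they were 465, 498 and 551 CPM and in cKO females 431, 455 and 512 CPM. All 7 cKO males and 6 of the 7 cKO females lay below the Ctrl mean of their sex, and the ranges overlapped in both sexes. The log2 fold change was -0.16 (adjusted p = 0.031 by edgeR, SE 0.04) over both sexes, -0.19 (adjusted p = 0.0996 by edgeR, SE 0.05) in males and -0.14 (adjusted p = 0.932 by edgeR, SE 0.05) in females. The call was lost with the length and GC correction (-0.15, edgeR adjusted p = 0.0615) and without any of 8 single mice (edgeR adjusted p up to 0.0585). These were Ctrl males 1 and 5, cKO male 6, Ctrl females 1 and 3, and cKO females 1, 5 and 7. The ventricular marker values given beside Hrc moved the same way, and their part in this value was not tested.

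The list of junctional membrane and release genes had 10 of 14 members with a lower mean over both sexes and a median of -0.08. Beside Tmem38a, which was called, 4 passed the unadjusted p only (all genes, called or not: 14.1%). Calm3, a calmodulin gene, was at -0.12 (adjusted p = 0.121 by edgeR, SE 0.04). Jph2 encodes junctophilin 2, which ties the store to the surface membrane, and was at -0.12 (adjusted p = 0.21 by edgeR, SE 0.05). Asph, whose locus also encodes junctin, a partner of triadin, was at -0.09 (adjusted p = 0.219 by edgeR, SE 0.04). Ryr1, the skeletal muscle release channel, was at 0.63 (adjusted p = 0.207 by edgeR, SE 0.24), but at no more than 1.12 CPM in any mouse. Fkbp1b, the calstabin that binds Ryr2, was at a level of 0.188 to 1.01 CPM in Ctrl males and had a log2 fold change of 0.23 (adjusted p = 0.791 by edgeR, SE 0.28).

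Among pump isoforms and regulators, 4 of 9 tested genes had higher and 5 lower means over both sexes, and none passed the unadjusted p in that comparison. S100a1, a calcium sensor known to stimulate the pump, was at -0.01 (SE 0.05), Sri (sorcin) at -0.05 (SE 0.05) and Strit1, which encodes the pump activator DWORF, at -0.13 (SE 0.14). Ppp1r1a, an inhibitor of protein phosphatase 1, was at 0.04 (SE 0.18). In males alone Ppp1r3a, a glycogen-targeting subunit of protein phosphatase 1, passed the unadjusted p at 0.32 (adjusted p = 0.291 by edgeR, SE 0.13).

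Among calcium channel subunits, 6 of 11 had higher means over both sexes. Cacna2d2, an auxiliary subunit, passed the unadjusted p at 0.65 (adjusted p = 0.107 by edgeR, SE 0.20), with 2.66 ± 0.558 CPM in Ctrl males (n = 6, SD) and 3.81 ± 1.22 CPM in cKO males (n = 7, SD). In females it was at 2.33 ± 0.839 CPM in Ctrl (n = 6, SD) and 3.96 ± 1.76 CPM in cKO mice (n = 7, SD), and the ranges overlapped in both sexes. The main partners of the cardiac pore were at -0.03 (SE 0.06) for Cacnb2 and 0.11 (SE 0.12) for Cacna2d1. All 4 tested genes of the list of calcium extrusion had higher means over both sexes and none passed the unadjusted p. This list leaves out the exchanger gene Slc8a1, which had a lower mean, at -0.10 (SE 0.08). Of the 4, Slc8a2 and Atp2b2 were at low levels, with group means of 1.12 to 1.36 and 0.332 to 0.69 CPM. The surface pumps Atp2b1 and Atp2b4 were at 0.02 (SE 0.03) and 0.14 (SE 0.07).

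Mitochondria take up calcium through the uniporter. Of the 9 tested genes of mitochondrial calcium transport, 8 had lower means over both sexes, with a median of -0.09, and 4 passed the unadjusted p (all genes: 14.1%) while none was called (all genes: 1.33%). The ventricular cardiomyocyte markers given beside Hrc also had lower means, in 7 of 7 with a median of -0.15, and their part in these values was not tested. Smdt1, the uniporter subunit EMRE, was at -0.12 (adjusted p = 0.137 by edgeR, SE 0.04). Micu2, a gatekeeper of the uniporter, was at -0.10 (adjusted p = 0.19 by edgeR, SE 0.04) and Letm1, an inner membrane protein linked to ion exchange, at -0.14 (adjusted p = 0.196 by edgeR, SE 0.05). Mcur1, a regulator of the uniporter, was at -0.09 (adjusted p = 0.351 by edgeR, SE 0.04). The pore gene Mcu was at -0.03 (SE 0.05) and its paralog Mcub at -0.13 (SE 0.16).

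Among IP3 receptors and store-operated entry genes, 5 of 10 had higher means over both sexes, and Itpr3 passed the unadjusted p at 0.15 (adjusted p = 0.231 by edgeR, SE 0.06). In males Orai2 passed it at 0.37 (adjusted p = 0.327 by edgeR, SE 0.17) and in females Orai1 at -0.15 (adjusted p = 0.941 by edgeR, SE 0.06); both encode pores of store-operated channels. Among kinases, phosphatases and anchors, 8 of 18 had higher means. Pde3a, a cAMP phosphodiesterase, passed the unadjusted p at -0.14 (adjusted p = 0.212 by edgeR, SE 0.06), and in males Akap6, the anchor mAKAP, did so at 0.17 (adjusted p = 0.229 by edgeR, SE 0.07). The other CaMKII isoforms were at -0.05 (SE 0.07) for Camk2b and -0.07 (SE 0.05) for Camk2g.

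Between females and males in cKO mice, 2 of the 75 genes were called with edgeR (all genes: 2.7%), a share near that of all genes, and in Ctrl mice 0 (all genes: 0.638%). At an unadjusted p under 0.05 there were 4 higher and 14 lower in cKO mice (all genes: 17.3%) and 1 higher and 8 lower in Ctrl mice (all genes: 12.1%). Both called genes were in the kinase list, and no test of this list against others was made. Camk2b, another CaMKII isoform, had lowest, median and highest values of 17.2, 18.8 and 20.6 CPM in Ctrl males and 11.9, 14 and 15.9 CPM in Ctrl females. In cKO mice they were 14.7, 18 and 21.5 CPM in males and 9.83, 14 and 17.8 CPM in females. The sexes did not overlap in Ctrl mice, as was the case for 1.02% of all genes, and overlapped in cKO mice (all genes: 1.09% separate). Females against males, Camk2b had a log2 fold change of -0.42 (adjusted p = 0.0562 by edgeR, SE 0.10) in Ctrl and -0.41 (adjusted p = 0.0223 by edgeR, SE 0.10) in cKO mice. The cKO call was lost when only the compared groups were fitted (edgeR adjusted p = 0.0609) and without cKO males 1 or 7 or cKO females 2 or 4 (edgeR adjusted p up to 0.0583).

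Prkar1a, also called, encodes a regulatory subunit of protein kinase A. In cKO mice its lowest, median and highest values were 559.9, 636 and 699 CPM in males and 467, 531 and 585 CPM in females, and the sexes overlapped. Its log2 fold change between females and males was -0.24 (adjusted p = 0.0479 by edgeR, SE 0.07) in cKO and -0.21 (adjusted p = 0.207 by edgeR, SE 0.07) in Ctrl mice. The call was lost with the length and GC correction (edgeR adjusted p = 0.0677), with no robust estimation (edgeR adjusted p = 0.0504) and without any of 10 of the 14 mice (edgeR adjusted p up to 0.0979); it was kept without cKO males 6 or 7 or cKO females 1 or 2. Among genes that passed only the unadjusted p in cKO mice, Akap6 was at -0.23 (adjusted p = 0.0522 by edgeR, SE 0.06), Atp2b1 at -0.14 (adjusted p = 0.0691 by edgeR, SE 0.04), Itpr3 at 0.26 (adjusted p = 0.0773 by edgeR, SE 0.08) and Orai2 at -0.51 (adjusted p = 0.0878 by edgeR, SE 0.16).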

How the data were processed

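RNA was extracted from mouse left ventricles and sequenced as stranded poly-A libraries made from 500 ng of RNA whose integrity number was 7.7 or more, per the labels' protocols. The authors deposited 1 matrix of raw counts per gene. FastQC 0.74, cutadapt 4.6, STAR 2.7.11a, HTSeq and the GRCm39 build are named per the submitters' processing notes; which annotation release was counted, and whether strand was used, is not given in the sources used here.

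Counts were used as deposited, and 310 genes with an identifier but no name were kept by identifier. Genes were kept by filterByExpr (minimum count 10), scaled by TMM and tested with the robust quasi-likelihood test of edgeR 4.0.16 in R 4.3.3, in 1 fit of the 4 groups with 6 contrasts and Benjamini-Hochberg adjustment over all genes tested. DESeq2 1.42.0, limma 3.58.1 (voom with quality weights), no low-count filter, a filter at 5 CPM, only the compared groups, a replicate block, an offset for transcript length and GC content, no robust estimation, DESeq2 size factors, omission of Ctrl males 3 and 6, and omission of each mouse were the alternatives. The use of principal transcripts and the correlations under the offset were chosen after seeing the data. Log2 CPM used a prior count of 2. Lengths came from GENCODE M21 and matched 15092 of the 15357 genes tested (98.3%). Exact tests and correlations used scipy 1.17.1. The edgeR fit was tested on simulated counts for cKO against Ctrl in males, and the other steps were not tested so. No 2 libraries of a group were alike within sampling noise (72 pairs, chi-square per degree of freedom 7.19 to 33.4).

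The members, gene lists and markers were chosen with earlier results of these data known. The text names all members and, from the pathway lists, called genes, at most 3 genes per list and contrast of smallest unadjusted p under 0.05, and a set of main regulators whatever their values (Asph, Jph2, Fkbp1b, Strit1, S100a1, Sri, Ppp1r1a, Cacnb2, Cacna2d1, Camk2b, Camk2g, Mcu, Mcub, Atp2b1 and Atp2b4, with 1 more not reported here). Mcur1 was added after its values were seen. Marker genes are named beside results. The floor of 3 counts for Sln covers counting error only.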

Additional observations from a re-analysis of the deposited data

Results flagged for a closer look

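The 9 tested genes and the Pln to Atp2a2 ratio gave 40 sets of values, 1 for each group. In each set the gap of the highest or lowest mouse to its nearest neighbour was compared with Dixon's 95% critical value. In 5 sets the gap was above it, where chance gives about 1 in 20. The ratio sets reuse the Pln and Atp2a2 values, so the 40 sets are not independent. Atp2a2 of cKO male 2 was low, at 9086 CPM against 11096 CPM in the next mouse. Pln of Ctrl male 4 was low, at 3822 CPM against 4873 CPM. Casq2 of cKO male 7 was high, at 1032 CPM against 894 CPM. Ctrl female 6 was low in 2 genes, with Hrc at 869.8 CPM against 1137 CPM and Trdn at 202 CPM against 236 CPM. The causes were not tested.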

How the results depend on the processing

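Numbers of genes called (adjusted p under 0.05) over all genes depended on the tool. The knockout calls in males were 68, and became 399 with DESeq2, 211 with voom, 31 without a low-count filter, 164 at 5 CPM or more, 34 with a replicate block, 32 with the length and GC offset, 5 with both and 7 without Ctrl males 3 and 6. In females 5 became 9 with DESeq2, 2 at 5 CPM or more, 1 with only the compared groups, 2 with the block and 2 with block and offset. Over both sexes 205 became 549 with DESeq2, 325 with voom, 113 without a filter, 109 with the block, 127 with the offset and 26 with both. Between the sexes in Ctrl mice 98 became 253 with DESeq2, 61 with only the compared groups and 40 without Ctrl males 3 and 6. In cKO mice 414 became 707 with DESeq2, 688 with voom, 244 without a filter and 265 with block and offset. Calls moved by over 1.5 times without single mice: to 37, 30, 30, 23 and 4 in males without Ctrl males 1, 2, 3, 4 and 5 and to 20, 11, 6 and 7 without cKO males 1, 2, 5 and 6; to 3 in females without Ctrl females 3, 5 or 6 or cKO females 3, 4, 6 or 7; and over both sexes to 131 and 96 without Ctrl males 1 and 5, 109, 127 and 349 without Ctrl females 1, 4 and 6 and 115 without cKO female 5. They also did between the sexes, in Ctrl mice without males 2 to 4 or females 4 or 6 (54 to 64) and in cKO mice without males 1, 6 or 7 or females 2 or 4 (163 to 236). With the offset 7 of the 32 male calls were higher, against 28 of 68.

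With each mouse left out in turn, calls ran from 4 to 79 in males, 3 to 7 in females, 96 to 349 over both sexes, 0 to 0 for the difference between sexes, 54 to 114 in Ctrl and 163 to 548 in cKO mice. The calcium handling genes called ran from 0 to 1 over both sexes (Hrc, without Ctrl female 6), and were 0 under all other settings run. Ryr2 in males turned to -0.0711 with the offset, -0.11 with block and offset and -0.036 without Ctrl males 3 and 6. Casq2 turned in males to 0.00495 with the offset and 0.0267 without Ctrl males 3 and 6, over both sexes to 0.000952 and 0.00401, and in females to 0.00456 with block and offset. Signs also turned on leaving out 1 mouse for Atp2a2 in males (-0.0444 to 0.0316), Ryr2 in males (-0.0248 to 0.0882) and over both sexes (-0.0678 to 0.00609), Camk2d in females (-0.0132 to 0.0468), Casq2 in females (-0.0509 to 0.00207) and males (-0.0762 to 0.00565), and Cacna1c in females (-0.15 to 0.0317), males (-0.0698 to 0.0179) and over both sexes (-0.0858 to 0.00642). The causes were not tested. The call for Tmem38a over both sexes was lost with the block (-0.16, adjusted p = 0.0994 by edgeR) and with block and offset (-0.15, adjusted p = 0.175). The median of the 9 genes was -0.0169 in males, -0.0413 in females and -0.0385 over both sexes with the block, and -0.108, -0.0716 and -0.0922 with block and offset. Same-numbered mice had a mean correlation of -0.0259 in males and 0.118 in females, against 0.0043 and -0.0186 for mice of other numbers. In females 3 of 6 same-numbered pairs were over 0.1, the highest at 0.404, and in males 0 of 6. Of the Ctrl mice, 1 of 6 males and 2 of 6 females correlated best with their own number. The labels state no pairing, so the replicate numbers were not taken as pairs. These values do not settle whether the numbers pair the females.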
